A study of Homo sapiens with 7 samples.

Results

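The clustered protocadherins are 53 genes in 3 neighbouring clusters on chromosome 5, PCDHA with 15 members here, PCDHB with 16 and PCDHG with 22, taken by position: every measured CpG in the hg19 spans chr5:140165001-140392000, chr5:140430001-140628000 and chr5:140710001-140893000. No cut on methylation level set the spans, but the members were chosen with earlier results of these data known. The 608 kb held 1778 CpGs seen in at least 1 library, and 1247 of them had 10 or more reads, both strands summed, in all 7 libraries. Bins of 1 kb with 3 or more such CpGs numbered 112 (34 in PCDHA, 30 in PCDHB and 48 in PCDHG) of 139277 in the genome. Another 19 bins held 1 or 2 such CpGs and were not used. Since the assay reads CpG-rich fragments, most of the 608 kb carries no value.

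Clustered protocadherins are cell-adhesion proteins of the cadherin superfamily, best known in neurons, where different combinations of them give single cells a surface identity used in self-avoidance. In PCDHA and PCDHG each variable exon carries its own promoter and is spliced to constant exons at the 3' end of the cluster, while PCDHB genes lack such constant exons. Most variable promoters are chosen stochastically, with DNA methylation, CTCF and cohesin taking part in the choice, and the C-type genes (PCDHAC1, PCDHAC2, PCDHGC3, PCDHGC4 and PCDHGC5) at the ends of PCDHA and PCDHG follow other rules.

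Methylation levels come from enhanced reduced representation bisulfite sequencing (ERRBS), which cuts DNA at CpG-rich sites and reads unmethylated cytosine as T and methylated cytosine as C. The level of a bin is the methylated share of the reads summed over its CpGs (cytosines followed by guanine). HUES8, a long-established line of human embryonic stem cells, was used as wild type (WT) and after knockout of TET1, TET2 and TET3 (TKO). TET enzymes oxidise 5-methylcytosine, a step towards its removal. Cardiac differentiation used the Wnt activator CHIR99021 and then the Wnt inhibitor IWP2, and DNA was taken from stem cells (SC) on day 0, from cardiac mesoderm (CME) on day 3, from cardiac progenitors (CP) on day 8 and, for WT, from beating cardiomyocytes (CM) on day 14, after a lactate enrichment step. For WT CM the description gives day 15 and the source label gives CME, so the stage was taken from the title. There was 1 library per genotype and stage, 4 of WT and 3 of TKO, and the labels do not say how many knockout clones were used. Where several levels follow each other below, the order is SC, CME, CP and CM for WT and SC, CME and CP for TKO. The files hold neither expression nor sequence, so cell identity and the knockout itself were not checked.

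The 4 promoters printed here show the opposite states found in TKO at the CpGs measured. PCDHGC3 was methylated there, in part at SC and CME and highly at CP, and PCDHGC4, PCDHGB6 and PCDHAC2 were not. They are RefSeq sequences (GRCh38.p14, plus strand, the 250 bases before the gene's start), with capitals for the CG dinucleotides measured in all 7 libraries. They span chr5:141475716-141475965 for PCDHGC3, chr5:141484780-141485029 for PCDHGC4, chr5:141407771-141408020 for PCDHGB6 and chr5:140966226-140966475 for PCDHAC2, in that build. The capitals mark 9 of 15 CGs in PCDHGC3, 5 of 13 in PCDHGC4, 11 of 14 in PCDHGB6 and only 2 of 13 in PCDHAC2.
PCDHGC3: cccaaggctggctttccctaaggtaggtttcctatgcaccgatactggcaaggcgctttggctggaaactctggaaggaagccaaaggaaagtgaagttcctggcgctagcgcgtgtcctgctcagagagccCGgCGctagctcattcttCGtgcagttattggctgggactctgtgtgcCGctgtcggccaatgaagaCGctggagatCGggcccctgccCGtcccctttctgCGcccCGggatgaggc
PCDHGC4: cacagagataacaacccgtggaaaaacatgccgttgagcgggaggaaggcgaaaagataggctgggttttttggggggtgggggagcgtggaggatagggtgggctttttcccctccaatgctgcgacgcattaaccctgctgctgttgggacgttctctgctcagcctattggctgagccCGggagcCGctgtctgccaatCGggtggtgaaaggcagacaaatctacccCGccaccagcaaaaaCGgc
PCDHGB6: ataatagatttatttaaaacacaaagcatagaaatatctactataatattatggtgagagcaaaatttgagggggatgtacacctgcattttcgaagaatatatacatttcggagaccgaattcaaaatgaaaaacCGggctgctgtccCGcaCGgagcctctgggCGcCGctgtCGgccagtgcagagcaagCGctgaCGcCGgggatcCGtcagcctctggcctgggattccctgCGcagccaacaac
PCDHAC2: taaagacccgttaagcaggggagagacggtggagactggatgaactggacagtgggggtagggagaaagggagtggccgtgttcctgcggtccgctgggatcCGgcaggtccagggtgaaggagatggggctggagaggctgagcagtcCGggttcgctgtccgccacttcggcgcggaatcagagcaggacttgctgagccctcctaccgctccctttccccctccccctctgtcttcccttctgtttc
The files carry hg19 positions and no annotation of hg19 was used here, so each promoter was set on them by the spacing of its CGs alone. A promoter counted as placed where 4 or more measured CpGs fell on its CGs, none fell beside them, and at least 2 more matched than at any other place in its cluster, a rule written after the matches had been seen. Promoter sequences were at hand for 47 of the 53 members and 8 were placed, in the order of RefSeq's genes. PCDHGC4 was placed with 15 CpGs, PCDHGB6 with 13, PCDHGC3 with 12, PCDHAC2 with 9 and PCDHGA10 with 4, each at 1 place in the whole genome. For PCDHGC4 and PCDHGB6 another RefSeq promoter was placed with as many CpGs, with starts at 140864741 and 140787770 (hg19). The start further upstream was used for both, and distances are counted from it. PCDHGB7 was placed only within its cluster, and PCDHB13 and PCDHGB5 had no promoter CpG covered in all 7 libraries. For the other 45 members bins are given by position, without a gene's name.

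Depth ranged from 120720475 C and T reads in WT SC to 213025338 in TKO CME, and the median number of reads per protocadherin bin, summed over its CpGs, from 328.5 in WT SC to 747 in TKO SC. Cytosines of mitochondrial CpGs, a measure of incomplete conversion, were read as C at 1.46% in WT SC and 1.44% in WT CME but at 0.139% to 0.387% in the other 5 libraries. WT SC and WT CME are also the libraries whose descriptions carry an extra suffix. Differences of a few percent that involve them were not separated from conversion. Many variable exons resemble each other in sequence, and how the aligner placed reads on such copies is not given in the sources used here.

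Most of the protocadherin DNA was highly methylated in both genotypes. The median level of the 112 bins was 91.7%, 92.8%, 92.1% and 91.8% for WT and 89.1%, 89.6% and 92.0% for TKO, against 84.7% to 88.8% over all bins of the genome. In all 7 libraries 73 bins (65.2%) lay above 80%, against 47.4% of all bins, and 11 (9.82%) lay below 20%, against 18.3%. PCDHB was the most evenly methylated of the 3 clusters by this count, with 24 of its 30 bins above 80% in every library, and PCDHA had 20 of 34 and PCDHG 29 of 48. In WT SC 21 bins were below 20%, 14 between 20% and 80% and 77 above 80%. The low ones stood as single bins or adjoining pairs, 8 in PCDHA, 2 in PCDHB and 11 in PCDHG, with unmeasured DNA between many bins. Towards the 3' ends few measured bins were highly methylated in WT SC. From the PCDHGC4 bin on, 5 of 10 bins were below 20% and 3 above 80%. From the PCDHAC2 bin on, 2 of 4 were below 20% and 0 above 80%.

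**Figure D1:**
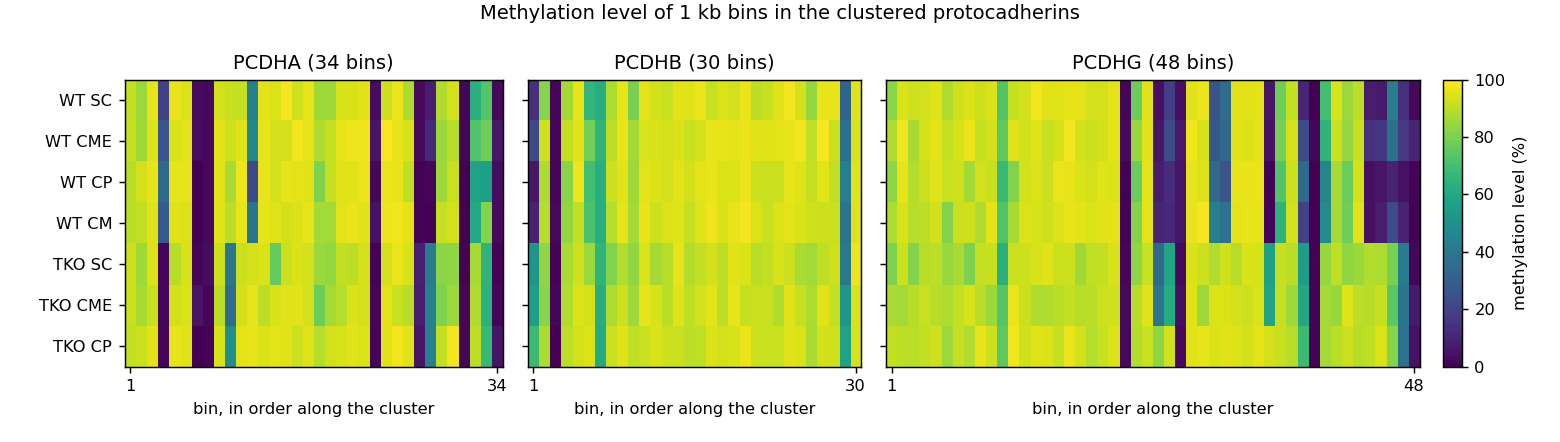
Methylation level (colour, percent) of the 112 bins (columns, in order along each cluster, not to scale in distance) in each of the 7 libraries (rows). Dark columns are the unmethylated bins: 21 lie below 20% in WT SC and 12 in each TKO library, and the columns that turn from dark to bright in TKO lie mostly in the second part of PCDHG.

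A small set of these bins was far more methylated in TKO than in WT, and most of the rest lay near their WT level. A bin was called higher or lower where its level differed by 25 percentage points or more at an adjusted p below 0.01 (Fisher's exact test on methylated and unmethylated reads, Benjamini-Hochberg over all 139277 bins). With 1 library per group these calls compare libraries and cover counting error only. In TKO SC against WT SC 13 of the 112 bins were higher (4.83% of all bins were) and 1 was lower (0.191% of all bins). At CME 12 were higher (background 4.6%) and 1 lower (background 0.158%), and at CP 15 were higher (background 10.9%) and 2 lower (background 0.0754%). As shares of the protocadherin bins the rises come to 11.6%, 10.7% and 13.4%. The share at CP is thus near that of all bins. The medians over the 112 bins differed little from WT, by -1.43 points at SC, -1.99 at CME and -0.22 at CP, against -1.22, -1.57 and 1.14 over all bins.

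The rises recurred at the same places. There were 12 bins higher at all 3 stages (10.7%, against 4.08% of all bins), and 9 of them lay in PCDHG, 2 in PCDHA and 1 in PCDHB. PCDHG had 10 bins higher at SC, 9 at CME and 11 at CP, PCDHA had 2, 2 and 3, and PCDHB had 1 at each stage. Each of these bins started below 80% in WT SC. Among the 21 bins below 20% in WT SC, 9 were higher at SC, 8 at CME and 9 at CP, where all bins of that class gave 11%, 10.8% and 14.1%. Of the 21, 12 (57.1%) stayed below 20% in every TKO library, against 80.2% of such bins in the genome, with 7 of 8 in PCDHA, 1 of 2 in PCDHB and 4 of 11 in PCDHG. In PCDHA 6 of the 7 were below 20% in all 7 libraries. The other, at 140174001, passed 20% in later WT stages and was lower in TKO. The 12 held 3 to 50 CpGs and had a median of 2.30% in WT SC, and the 9 that rose held 5 to 45 CpGs and had a median of 7.67%. TKO level in the 9 had a median of 55.0% at SC and 83.2% at CP. The bins and the classes share the same 7 libraries, so these shares are descriptions.

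**Figure D2:**
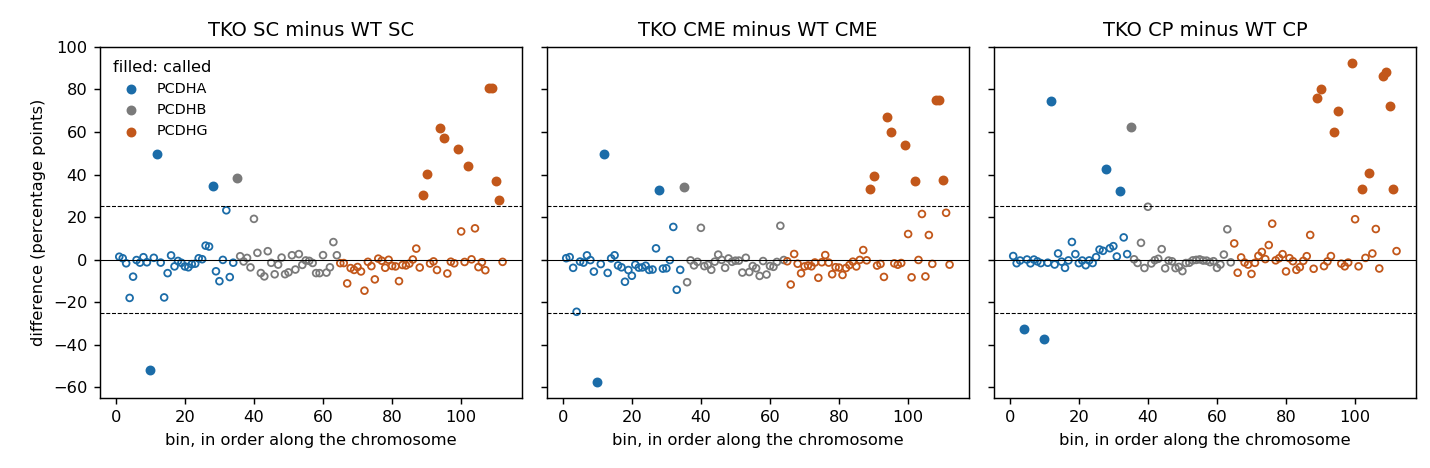
Difference in methylation level, TKO minus WT in percentage points, of the 112 bins in order along the chromosome at SC, CME and CP. Filled points were called, dashed lines mark 25 points, and colours mark the clusters: 13, 12 and 15 filled points lie above 0, most of them in PCDHG, and 1, 1 and 2 lie below, all in PCDHA.

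Of the C-type genes of PCDHG, PCDHGC3 was methylated at its start in TKO but not in WT, while the PCDHGC4 start lay near 0% in both. Over the 12 CpGs in the PCDHGC3 promoter window, 250 bases before to 50 after the start, WT levels were 2.39%, 2.23%, 0.290% and 0.327%. The TKO level was 48.2% at SC (95% Wilson interval 45.4 to 51.0, 1247 reads), 49.0% at CME and 90.7% at CP (88.4 to 92.5, 782 reads). Single CpGs did not overlap between the genotypes at SC or CP: they ranged from 0% to 5.88% in WT SC and from 41.7% to 59.0% in TKO SC, and from 0% to 2.50% in WT CP and 81.4% to 96.1% in TKO CP. The whole bin, chr5:140855001-140856000 with 31 CpGs from 118 bases before to 430 after the placed start, had WT levels of 5.09%, 4.81%, 0.469% and 1.08% and TKO levels of 56.9%, 58.5% and 93.0%. All 31 CpGs were higher in TKO at each stage.

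The PCDHGC4 start, at 140864597 on chromosome 5 (hg19) and so 9064 bases further on, stood at or below 1.29% in every library. Its 10 CpGs had WT levels of 0.524%, 1.29%, 0% and 0.137% and TKO levels of 0.630%, 1.11% and 0.786%. The 0% is 0 of 705 reads, which allows a level of up to 0.426%. TKO minus WT was at most 0.786 points (adjusted p = 0.0585 at CP by Fisher's exact test, 1 at SC and 0.893 at CME). DNA beyond the start differed from it: the bin at 140865001, 828 to 949 bases past the start, had WT levels of 69.6%, 64.9%, 45.7% and 48.1% and TKO levels of 84.3%, 86.4% and 86.5%, and was called at CP alone, by 40.8 points (adjusted p = 3.23e-32).

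**Figure D3:**
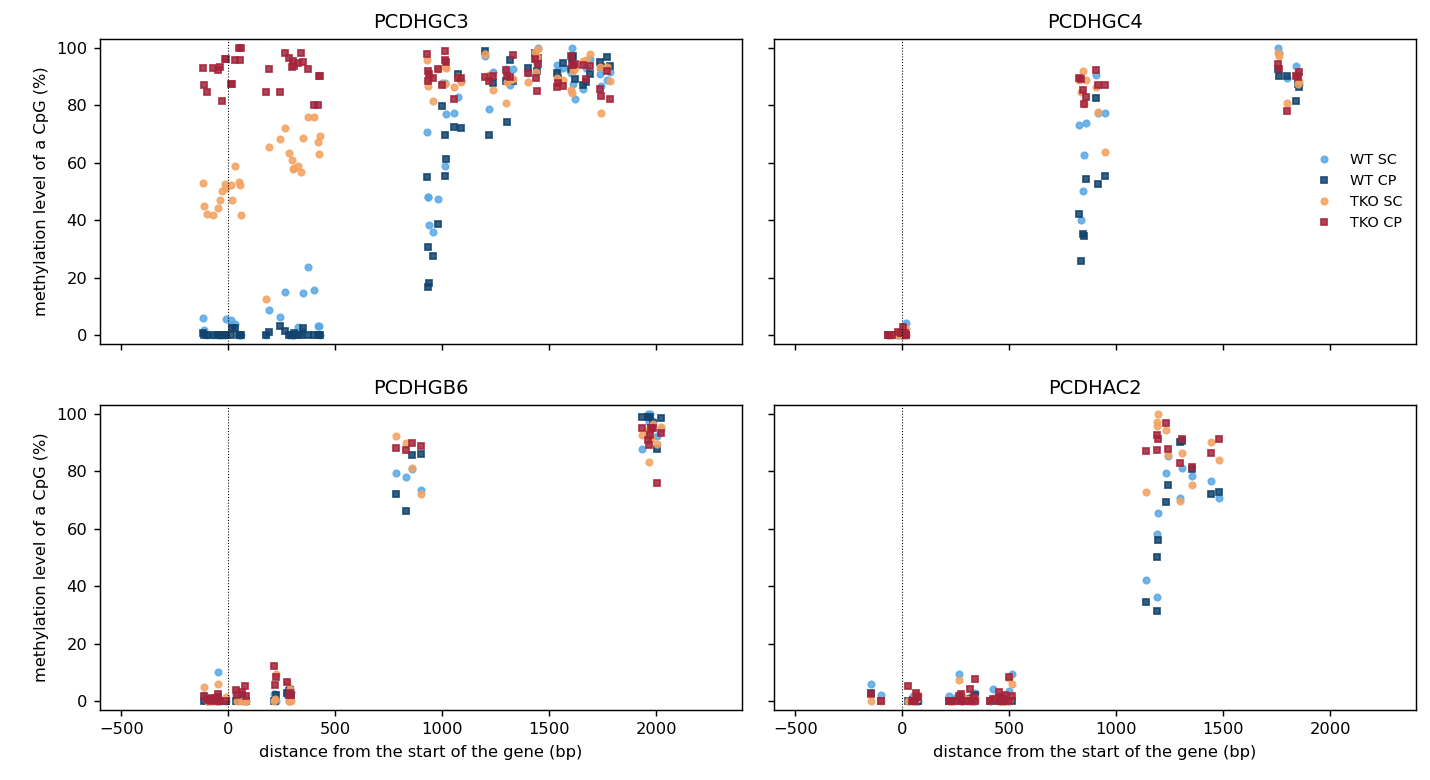
Methylation level of single CpGs (percent) against distance from the placed start of 4 genes, in bp, for WT and TKO at SC and CP. Within 430 bp of the PCDHGC3 start the CpGs lie between 12.5% and 76.0% in TKO SC and between 80% and 100% in TKO CP, each above the WT level at the same CpG, while at PCDHGC4, PCDHGB6 and PCDHAC2 both genotypes lie near 0% at the start and higher about 1 kb past it.

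The largest rises of the 3 clusters at SC and CME stood beyond PCDHGC4, in the adjoining bins chr5:140871001-140872000 and chr5:140872001-140873000. At CP they rose by 86.3 and 88.4 points, less than the PCDHGC3 bin at 92.6 points. The first, with 45 CpGs, had WT levels of 7.67% (6.82 to 8.62, 3351 reads), 14.2%, 4.14% and 4.48% and TKO levels of 88.6% (87.6 to 89.5, 4658 reads), 89.2% and 90.4%. The second, with 20 CpGs, stood at 7.11%, 16.1%, 5.83% and 7.47% for WT and 87.6%, 91.3% and 94.2% for TKO. The highest WT level of the pair was 16.1% and the lowest TKO level 87.6%, and all 65 CpGs were higher in TKO at each stage. These CpGs lie 6426 to 7602 bases past the PCDHGC4 start. In RefSeq's order PCDHGC5 is the single member that starts after PCDHGC4, but its promoter sequence was not at hand, so the bins are not assigned to it. Between PCDHGC3 and PCDHGC4, the bin at 140858001 (5 CpGs) had WT levels of 10.8%, 22.9%, 34.8% and 19.4% and TKO levels of 55.0%, 60.0% and 68.1%.

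Further upstream in PCDHG, DNA at or just past the starts of variable genes also split. PCDHGB6 kept an unmethylated start: over 13 promoter CpGs WT levels ran from 0.116% (CP) to 2.00% (CME) and TKO levels from 0.388% (CME) to 1.36% (SC), and the groups overlapped. Its bin, chr5:140787001-140788000 with 23 CpGs, was the CpG-richest of PCDHG to stay below 20% in TKO, with TKO levels of 1.83%, 2.51% and 2.30% beside WT levels of 1.81%, 2.68%, 0.715% and 0.914%. PCDHGB7 likewise stayed low, at 4.00% to 5.46% in the 4 WT libraries and 1.01% to 2.26% in the 3 TKO libraries over 4 promoter CpGs. The TKO values lay below the WT ones at these 4 CpGs, but not over the whole bin at 140797001. Its 14 CpGs had WT levels of 3.93%, 6.92%, 5.64% and 5.58% and TKO levels of 2.08%, 4.10% and 2.56%, and the groups overlapped. Just past the PCDHGA10 start, at 42 to 443 bases, 16 CpGs of the bin at 140792001 had WT levels of 4.26%, 5.93%, 7.44% and 10.3% and TKO levels of 34.5%, 39.3% and 83.2%. The adjoining bin at 140793001 stood at 18.7%, 23%, 13.0% and 11.1% for WT and 58.9%, 62.1% and 93.1% for TKO. A single CpG of the PCDHGA10 promoter window was covered in all 7 libraries, at 2.94% in WT SC (68 reads) and 31.1% in TKO SC (132 reads). It lies 42 bases past the start and is among the 16 above. Of the 3 CGs in the 250 bases before the start, 0 were covered in all 7 libraries.

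Past PCDHGB7, the bins at 140800001 and 140801001 were already partly methylated in WT and nearly full in TKO. The first had WT levels of 26.1%, 27.4%, 34.3% and 43.1% and TKO levels of 88.0%, 94.6% and 94.5%. The second had WT levels of 35.7%, 34.6%, 25.6% and 37.6% and TKO levels of 92.7%, 94.5% and 95.5%. The highest WT level of the pair was 43.1% and the lowest TKO level 88.0%. The first 21 bins of PCDHG, before the PCDHGB6 bin, gave no call in any genotype comparison by Fisher's exact test (8 of 21 at SC, 8 at CME and 7 at CP had an unadjusted p under 0.05). In WT SC 20 of them were above 80% and the other was at 73.0%, so at SC at most 1 had room for a rise of 25 points. From the PCDHGB6 bin on, 11 of 27 bins were below 20% in WT SC, and 10, 9 and 11 were higher in TKO at SC, CME and CP. This boundary was chosen after the values were seen.

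**Figure D4:**
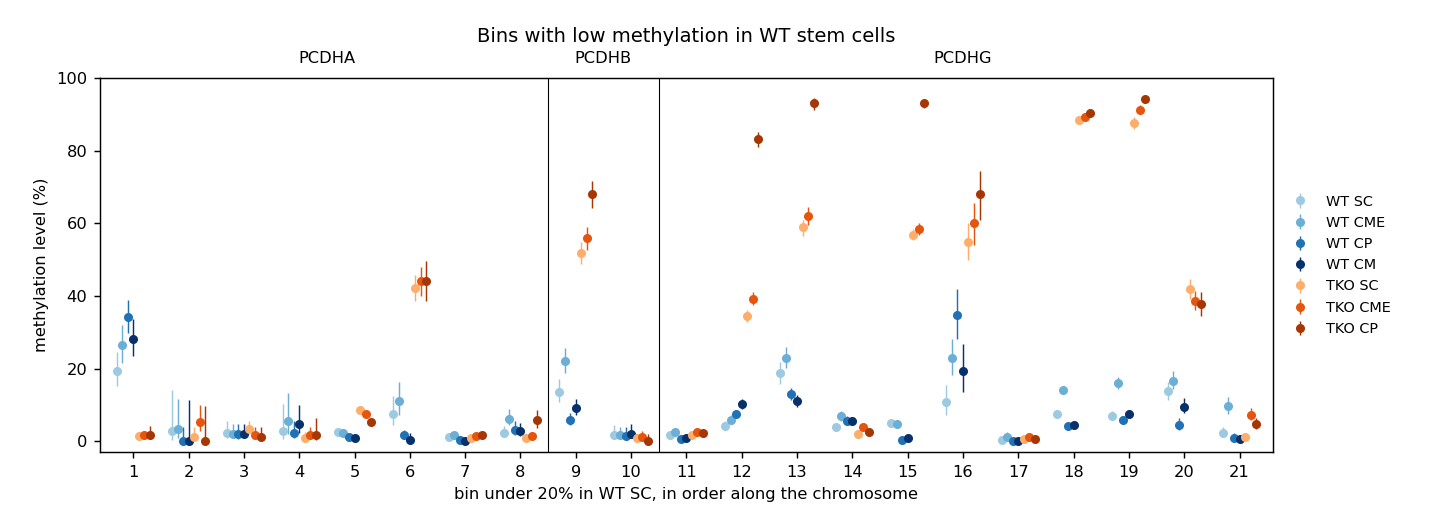
Methylation level (percent, points, with 95% Wilson intervals as bars) of the 21 bins below 20% in WT SC, in order along the chromosome, in the 4 WT libraries (blue) and the 3 TKO libraries (orange to brown). In 9 bins the TKO points rise to between 34.5% and 94.2%, and in the other 12 they stay at or below 8.62%.

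PCDHA kept most of its unmethylated bins in TKO. The C-type gene PCDHAC2 had a start with 0% to 2.94% methylation over 4 promoter CpGs in the 4 WT libraries and 0% to 1.83% in the 3 TKO libraries. Its bin, chr5:140346001-140347000 with 34 CpGs, had WT levels of 1.18%, 1.66%, 0.297% and 0.178% and TKO levels of 1.03%, 1.44% and 1.73%. The next bin, 1141 to 1482 bases past the start, had WT levels of 63.5%, 72.6%, 57.8% and 61.2% and TKO levels of 86.7%, 88.0% and 90.2%. The difference passed 25 points at CP (32.4, adjusted p = 4.83e-38 by Fisher's exact test) but came to 23 there by the mean over CpGs.

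A second CpG-rich stretch in PCDHA was cut by a bin border into a pair of bins, of which only the second was called. The bin chr5:140306001-140307000, with 50 CpGs the richest low bin of the 3 clusters, had WT levels of 2.49%, 2.39%, 1.13% and 0.859% and TKO levels of 8.62%, 7.66% and 5.24%. Its neighbour at 140307001, whose 5 CpGs lie in the first 25 bases of that bin, stood at 7.60%, 11.1%, 1.71% and 0.408% for WT and 42.2%, 44.0% and 44.1% for TKO. Within the 50 CpGs single levels in TKO SC ran from 0% to 47.4%, and within the 5 from 28.4% to 53.0%, so the 2 bins overlapped. The last CpG of the first bin lies at 140306985 and the first of its neighbour at 140307001. PCDHAC1 matched 4 CpGs nearby against 3 at the next best place in PCDHA, a lead too small for the rule. At least as many matched at 1860 places in the genome, so the pair is not assigned to PCDHAC1.

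The 2 bins that were lower in TKO both lay in PCDHA. At chr5:140207001-140208000 (10 CpGs) WT levels were 91.4%, 92.8%, 87.1% and 89.8%, and TKO levels were 39.3%, 35.3% and 49.8%. TKO minus WT was -52.2, -57.5 and -37.3 points (adjusted p = 2.14e-66, 4.66e-81 and 2.52e-37 by Fisher's exact test), and all 10 CpGs were lower in TKO at each stage. At chr5:140174001-140175000 (9 CpGs) WT levels were 19.5%, 26.4%, 34.3% and 28.2% and TKO levels 1.47%, 1.89% and 1.81%, and the difference passed 25 points at CP alone. In the opposite direction, chr5:140214001-140215000, with 3 CpGs, had WT levels of 43.9%, 46.6%, 22.2% and 38.8% and TKO levels of 93.6%, 96.3% and 96.7%, the last from only 30 reads (83.3 to 99.4). WT and TKO levels did not overlap in any of these 3 bins, which were named for their differences or after the values were seen. The share of all bins that separate in this way was not computed.

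PCDHB had 1 bin that rose, its first, chr5:140431001-140432000 with 9 CpGs. It had WT levels of 13.7% (10.7 to 17.2), 22.1%, 5.88% and 9.30% and TKO levels of 51.9%, 56.0% and 68.1% (64.1 to 71.8). All 9 CpGs were higher in TKO at each stage. The other low bin of PCDHB, at 140474001 with 5 CpGs, stayed at 1.59% to 2.10% in WT and at 0% to 1.36% in TKO, where 0 of 191 reads allows up to 1.57%. After the first bin, the next largest differences in PCDHB were below the threshold: 19.1, 14.9 and 24.8 points at 140480001, and 8.23, 15.9 and 14.2 at 140625001, for SC, CME and CP.

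The 3' constant parts could be set by position only, as the last 20 kb of the PCDHA and PCDHG spans. In PCDHA this held 1 bin, at 140381001, whose 6 CpGs had WT levels of 2.33%, 6.32%, 3.22% and 2.87% and TKO levels of 0.855%, 1.48% and 5.78%. In PCDHG it held 3 bins, of which 2, 1 and 2 were higher in TKO at SC, CME and CP (background 4.83%, 4.6% and 10.9% of all bins). None of the 3 was above 80% in WT SC, and so few bins give no share to set against the background. That at 140874001 (19 CpGs) had WT levels of 42.9%, 37.0%, 9.83% and 23.1% and TKO levels of 79.8%, 74.3% and 81.9%. That at 140888001 (10 CpGs) had WT levels of 13.8%, 16.8%, 4.54% and 9.61% and TKO levels of 42.0%, 38.8% and 37.7%. The last, at 140892001, stayed at 0.615% to 9.66% in WT and 1.18% to 7.27% in TKO. Counts of higher bins moved with the length taken. They were 1, 0 and 1 of 2 bins for the last 10 kb. For the last 30 kb, which takes in the bins from PCDHGC4 on, they were 4, 3 and 5 of 10 bins.

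Set against the spread of the genotype difference between stages, 9 of the bins were called. The stages are not replicate cultures. A limma model of genotype plus stage on the 6 libraries of the 3 shared stages, with 2 residual degrees of freedom, called 7 protocadherin bins higher (3.7% of all bins) and 2 lower (0.0237% of all bins). The 7 were the bins at 140214001 and 140307001 in PCDHA and at 140800001, 140801001, 140858001, 140871001 and 140872001 in PCDHG, and the 2 were those at 140174001 and 140207001, with limma adjusted p from 0.000298 to 0.00401. The PCDHGC3 bin missed the threshold there (mean difference 66.0 points, limma adjusted p = 0.0106). Leaving out the SC or the CME pair raised the number of higher bins to 14 each, and leaving out the CP pair gave 9 higher and 1 lower.

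In 5 PCDHG bins the difference itself grew between SC and CP (z test on the reads, Benjamini-Hochberg over all bins, 25 points or more; 6.39% of all bins gave a larger and 0.136% a smaller difference). It went from 30.2 to 75.8 points at 140792001 (adjusted p = 1.33e-168), from 40.2 to 80.1 at 140793001 (4.51e-67) and from 51.8 to 92.6 at 140855001 (8.59e-282). In these 3 the TKO level rose, by 43.9, 31.0 and 34.5 points from CME to CP. At 140865001 it went from 14.7 to 40.8 (1.16e-07) and at 140874001 from 36.9 to 72.1 (9.34e-41), and there the WT level fell between CME and CP, from 64.9% to 45.7% and from 37.0% to 9.83%, while the TKO level moved by 0.112 and 7.61 points. The share of the protocadherin bins, 4.46%, was below the background.

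Along the WT course the clusters changed little. From SC to CME Fisher's exact test called no bin (background 0.0438% higher and 0.0223% lower), with 21 bins at an unadjusted p under 0.05. From CME to CP 1 bin was lower and none higher (background 4.1% and 0.033%; 39 at an unadjusted p under 0.05), namely that at 140874001, which fell by 27.1 points (adjusted p = 1.62e-47), a fall that was no call by the mean over CpGs. From CP to CM none was called (background 0.0682% higher and 0.0345% lower; 26 unadjusted), and none from SC to CM (background 0.134% higher and 3.46% lower; 34 unadjusted). From SC to CM the level fell by 21.5 points at 140865001, fell by 19.9 at 140874001 and fell by 13.2 at 140856001, the 3 largest falls. In the last, 25 CpGs went from 77.8% to 64.6%, and all 3 bins lie in PCDHG from PCDHGC3 on.

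In TKO no bin was called from SC to CME (background 0.0704% higher and 0.0582% lower; 45 at an unadjusted p under 0.05 by Fisher's exact test). From CME to CP 3 bins were higher and none lower (background 0.617% and 0.0747%), the bins past the PCDHGA10 start and at PCDHGC3 (adjusted p = 1.89e-159 at 140792001, 1.53e-70 at 140793001 and 3.81e-185 at 140855001). These 3 had stood at 39.3%, 62.1% and 58.5% in TKO CME and reached 83.2%, 93.1% and 93.0% in TKO CP. In WT the same bins were at 7.44%, 13.0% and 0.469% at CP.

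Most promoters of clustered protocadherins share a conserved element whose core is read as CGCT, and those of PCDHAC2 and PCDHGC4 are known to lack the element. The 4 letters alone, searched on both strands of the 300 bases around the start (250 before, 50 after), were in 51 of 52 protocadherin promoter sequences (98.1%) and in 70.0% of the 35116 sequences of the whole table. They occurred 6 times in PCDHGC3, 3 times in PCDHGC4, 2 times in PCDHGB6 and 4 times in PCDHAC2, which counts the letters and not the element.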

How the data were processed

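The deposited files list CpG cytosines by strand, with coverage, a read count per cytosine, and the percent of reads read as C and as T by the authors, per the file headers. The lowest count is 10. Alignment and methylation extraction were done by a core facility, per the labels' protocols, with hg19 as the build, per the submitters' processing notes, and the aligner was not given in the sources used here. Counts times percentages gave the methylated and unmethylated reads, which were summed over both strands and over 1 kb bins. Groups came from sample titles. Each of 9 pairs of libraries was compared by Fisher's exact test (two-sided, Benjamini-Hochberg over 139277 bins), the genotypes also by limma on arcsine square root levels with stage as a block, and the change of the genotype difference by a z test. Reads that span several CpGs and PCR copies are not independent, so p-values and Wilson intervals cover counting error only and can be too small.

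On simulated data with these bins, for TKO CP minus WT CP, Fisher's exact test recovered 100 of 100 bins changed by 40 points and 99 of 100 changed by 30, and called 0 of 139077 unchanged bins. In the fit of genotype with a stage block limma recovered 93 and 82, and for the change from SC to CP the z test recovered 100 and 94, each of 100 and over the same bins. Apart from the changes put in, all simulated libraries shared a single base level per bin and differed by counting error alone. Spread between libraries, stages or conversion was left out, so the check cannot tell how often such spread gives a call.

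Members and lists were chosen with earlier results of these data known. The rule for naming bins took, in each cluster, the 3 largest rises and the largest fall in TKO at SC and at CP, the CpG-richest bin staying below 20%, and the 3 largest falls from WT SC to WT CM. Further bins named (those at 140174001, 140346001, 140381001, 140792001, 140793001, 140797001 under PCDHGB7, 140801001, 140858001, 140864001 under PCDHGC4, 140888001 and 140892001) and the placing of promoters were chosen after the values were seen. No coordinate was converted between builds. Non-clustered protocadherins and chromatin regulators were not analysed here, since no hg19 annotation was used. Alternatives were 20 or more reads per CpG, 5 or more CpGs per bin, 40 points, the mean over CpGs, coverage in the pair only, a mitochondrial conversion correction, bins shifted by 500 bp, a logit scale, each stage left out, and other 3' lengths. Tools were limma 3.58.1 in R 4.3.3 and, in Python 3.11.15, scipy 1.17.1, pandas 2.3.3, numpy 2.4.6 and numba 0.67.0.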

Additional observations from a re-analysis of the deposited data

Results flagged for a closer look

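In 5 PCDHG bins the genotype difference differed between stages by a test of that difference (z test on the reads, Benjamini-Hochberg adjustment over all bins). Those are 4.46% of the 112 member bins, against 6.39% of all 139277 bins. It was larger at CP than at SC by 45.5 points at chr5:140792001-140793000 (hg19), by 40.0 points at chr5:140793001-140794000, by 40.7 points at chr5:140855001-140856000, by 26.1 points at chr5:140865001-140866000 and by 35.3 points at chr5:140874001-140875000. The first 2 lie just past the placed PCDHGA10 start, the third holds the placed PCDHGC3 start, and the last 2 lie past the PCDHGC4 start. Each stage is 1 library per genotype, so the test covers counting error only. WT SC and WT CME had 1.46% and 1.44% of mitochondrial CpG cytosines read as C, against 0.219% in WT CP and 0.141% in TKO SC. The part of conversion in the 5 changes was not tested on the changes themselves. For 3 of the bins TKO minus WT was also computed from levels corrected for unconverted cytosine: from SC to CP it went from 53.2 to 92.8 points at 140855001, from 15.1 to 40.9 points at 140865001 and from 37.7 to 72.3 points at 140874001.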

How the results depend on the processing

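Of 172 recomputed counts 154 stayed within 1.5 times the value reported, and all 54 medians moved by less than the spread used for them. Of 360 values of single bins 350 kept their side of the threshold, 9 lost it, 1 gained it and 0 reversed. The totals include counts of 0 that stayed 0 and single bins far from the threshold, so they can overstate how stable the calls near it are. At 40 points the bins higher in TKO fell to 8 at SC and 6 at CME (5 in PCDHG), those lower at CP to 0, the WT fall from CME to CP to 0, the TKO rises from CME to CP to 1 and the larger differences at CP to 2. With 20 or more reads per CpG 2 bins were lower at CME. By the mean over CpGs the WT fall from CME to CP was no call, with 0 bins lower. In the limma fit, leaving out a stage gave 9 to 14 higher and 1 to 2 lower bins, with 1 residual degree of freedom. In the 3' part of PCDHG the higher bins at SC, CME and CP numbered 1, 0 and 1 of 2 bins in the last 10 kb. They numbered 4, 3 and 5 of 10 in the last 30 kb, as a longer stretch takes in more bins. The last 10 kb of PCDHA held no bin and gave no value. No paired analysis was possible because each group has 1 library, so no replicate number pairs samples beyond the stage already used as a block. Depth limits bins such as that at 140214001, with 30 reads in TKO CP, and levels under about 1.5% in WT SC and WT CME lie within the share of unconverted cytosine.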
